A study of Rattus norvegicus with 23 samples.

Results

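The 9 genes described here encode proteins of the thick filament, the myosin rod of the heart muscle sarcomere, and were chosen by name as the ventricular myosin chains with their closest partners: Myh6, Myh7, Myh7b, Myl2, Myl3, Mybpc3, Mylk3, Myom1 and Myom2. All 9 were listed among the 10723 genes with values per library, and all 9 were among the 10655 that passed the filter on low values. Polyadenylated RNA came from snap-frozen myocardium of Sprague-Dawley rats, whose age, sex and genotype the labels do not give. In the MI group the left coronary artery was tied off through a left thoracotomy, which causes a myocardial infarction, and tissue was taken 12 weeks later. Rats of the MI+TRD group were infarcted likewise and were operated on again to implant a device called TRD, also with 12 weeks of follow-up. The labels do not say what TRD stands for, do not mention a second operation without the device in the MI rats, and do not say which region of the heart was sectioned. The effect of the device therefore cannot be told apart from that of the second operation. Each 12-week group had 6 libraries. At 6 weeks the series holds 6 MI and 5 MI+TRD libraries, 23 libraries in all, and these enter only through the authors' deposited table of comparisons. The labels name no animals, and the spread that the p-values rest on is that between libraries, which may be technical.

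In heart muscle, myosin heavy chains form dimers whose heads split ATP and pull on actin, and each head carries an essential and a regulatory light chain. Rodent ventricles use mainly the fast alpha chain, encoded by Myh6, and shift toward the slow beta chain, encoded by Myh7, under load and after injury, a shift known from many models of heart failure. Myosin-binding protein C restrains the heads along the filament, a cardiac kinase adds phosphate to the regulatory light chain, and myomesins tie neighbouring filaments together at the M-band. In bulk tissue, fewer muscle cells and less RNA per muscle cell cannot be told apart.

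The 3 heavy chain genes each carry a microRNA gene in their span, a group known as the myomiRs, and the mature strands are shown because those of Myh6 and Myh7 share a seed and that of Myh7b has one close to it. They are taken from RefSeq's annotation of the build GRCr8, with bases 2 to 8, the seed, in capitals.
rno-miR-208a-3p, in Myh6: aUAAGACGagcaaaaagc
rno-miR-208b-3p, in Myh7: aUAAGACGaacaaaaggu
rno-miR-499-5p, in Myh7b: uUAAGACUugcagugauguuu
The strands from Myh6 and Myh7 carry 1 seed, UAAGACG, and that from Myh7b carries UAAGACU. No row of the 12-week table had a symbol that starts with Mir (0 of 10723), so the values below are of the host transcripts and not of the microRNAs.

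Promoter windows of RefSeq, from 250 bases before to 50 bases after the annotated start of the gene, were on hand for 7 of the 9 genes, all but Myl2 and Myom2. Shown in GRCr8 are those of Myh7b and Mybpc3, whose groups did not overlap on the deposited scale, of the light chain gene Myl3, and of Mylk3 and Myom1, whose levels moved together across libraries. Each is written 5′ to 3′ on the gene's strand, with every motif match in capitals.
Myh7b, chr3:164558090-164558389, plus strand: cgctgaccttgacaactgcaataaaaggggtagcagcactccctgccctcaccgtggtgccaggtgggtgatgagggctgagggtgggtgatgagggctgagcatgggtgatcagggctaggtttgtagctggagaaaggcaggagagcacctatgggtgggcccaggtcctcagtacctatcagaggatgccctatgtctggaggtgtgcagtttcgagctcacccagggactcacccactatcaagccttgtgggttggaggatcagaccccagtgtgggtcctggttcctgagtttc
Mybpc3, chr3:97550811-97551110, plus strand: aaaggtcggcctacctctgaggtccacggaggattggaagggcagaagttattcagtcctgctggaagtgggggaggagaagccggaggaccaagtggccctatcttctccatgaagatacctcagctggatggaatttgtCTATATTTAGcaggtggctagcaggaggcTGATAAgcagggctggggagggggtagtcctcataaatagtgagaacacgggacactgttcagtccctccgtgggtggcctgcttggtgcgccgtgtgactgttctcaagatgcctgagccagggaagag
Myl3, chr8:119616844-119617143, plus strand: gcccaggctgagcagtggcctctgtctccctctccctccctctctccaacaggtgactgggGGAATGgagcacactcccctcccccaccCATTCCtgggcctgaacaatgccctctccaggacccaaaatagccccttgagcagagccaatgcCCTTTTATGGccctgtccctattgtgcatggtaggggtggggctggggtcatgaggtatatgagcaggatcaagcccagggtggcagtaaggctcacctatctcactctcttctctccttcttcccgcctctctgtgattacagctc
Mylk3, chr19:37881745-37882044, plus strand: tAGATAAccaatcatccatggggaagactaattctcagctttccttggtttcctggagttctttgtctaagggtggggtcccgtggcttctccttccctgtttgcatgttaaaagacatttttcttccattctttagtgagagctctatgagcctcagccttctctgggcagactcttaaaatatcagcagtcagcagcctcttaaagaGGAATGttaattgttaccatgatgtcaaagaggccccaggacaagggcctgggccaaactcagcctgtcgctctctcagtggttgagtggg
Myom1, chr9:118366896-118367195, plus strand: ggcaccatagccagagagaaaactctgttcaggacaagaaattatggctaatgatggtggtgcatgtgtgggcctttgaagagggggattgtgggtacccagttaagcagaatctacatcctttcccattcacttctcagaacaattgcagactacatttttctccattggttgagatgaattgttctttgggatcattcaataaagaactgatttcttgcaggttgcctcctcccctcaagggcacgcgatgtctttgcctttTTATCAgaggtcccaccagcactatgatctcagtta
The motifs searched on both strands were CATTCC, bound by TEAD factors, NGATAA, bound by GATA factors, TATAAA, and the MEF2 and CArG motifs, the last of them bound by SRF. CATTCC stood in 14.2%, NGATAA in 26.4%, TATAAA in 14.2%, MEF2 in 3.29% and CArG in 1.63% of the 33365 promoter windows of this length. Mybpc3 held a MEF2 match, 109 bases before the start, and an NGATAA match. Myl3 held 2 CATTCC matches and a CArG match, 97 bases before the start. Mylk3 held a CATTCC and an NGATAA match, Myh6 held a CATTCC match, and Myh7b and Myh7 held none of the 5. Myom1 held an NGATAA match, at base 15 after the start and so not before it. The annotated start of Myom1 falls on the letters atg. In the window of Myh7, which is not shown, the annotated start directly follows the letters ccccag, and the letters atg come shortly after it. Whether transcription starts at these places was not tested, so a window without a match need not be a promoter without these motifs. A match is a run of letters and not a shown binding site.

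The deposited 12-week values are normalized counts per gene, from which between 7197099 and 10304189 reads per library were recovered. Each of the 9 genes had at least 1749 reads in every library, so counting error was small beside the spread between libraries. Together they took between 6.40% and 9.13% of the column total in MI and between 6.56% and 11.3% in MI+TRD. Of 12 other cardiomyocyte markers all 12 were in the table, with 5 lower and 0 higher in MI+TRD by limma's unadjusted p (below 0.05), and their median log2 fold change was −0.27. Of 11 markers of fast skeletal muscle 3 were in the table, at a summed 5.64 to 11.4 in MI and 2.20 to 14.2 in MI+TRD. Of 9 atrial markers 7 were in the table, at a summed 222 to 12229 in MI and 139 to 3393 in MI+TRD, so the libraries differ in atrial RNA. MI+TRD replicates 1, 4 and 5 stood apart from the other MI+TRD libraries, with 119, 114 and 178 genes at 0 reads against 13 to 46. In the same replicates the red cell gene Hba2 measured 88.3, 234 and 465, where replicates 2, 3 and 6 had 0.498 to 2.71 and the MI group 0.809 to 25.7. Over all 6 red cell markers in the table the split was less clear. Their mean log2 score was 3.66 for MI+TRD replicate 1, beside 3.18 to 3.62 for replicates 2, 3 and 6. Only replicates 4 and 5, with scores of 5.17 and 5.56, exceeded the MI libraries, which scored 2.45 to 4.68. Genes of short span were low for replicates 1, 4 and 5, with median deviations (log2) of −0.36, −0.34 and −0.27. Replicates 2, 3 and 6 had −0.09 to 0.09. Of 8 epicardial and mesothelial markers 6 were in the table, with 5 higher and 0 lower in MI+TRD by limma's unadjusted p, a median log2 fold change of 1.56, and a summed 9.44 to 24.5 in MI against 15.6 to 87.8 with the device. Across all genes tested, the median log2 fold change was −0.14 on the deposited scale, and limma called 0 genes at an adjusted p below 0.05 (0% of 10655). At an unadjusted p below 0.05, limma found 2033 genes lower and 298 higher, against 876 and 801 after median-ratio scaling and 412 and 1208 with equal totals.

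Of the heavy chain genes, Myh7b was lower in every MI+TRD library than in any MI library, while Myh6 and Myh7 overlapped between the groups. Myh7b encodes a slow myosin heavy chain of minor abundance in the heart and hosts the miR-499 gene (chromosome 3, 151126591 to 151150345 in the deposited table, for which the submitters' processing notes name the build rn6). Its normalized count was 223, 147, 144, 235, 147 and 159 in MI replicates 1 to 6, and 115, 78.2, 81.3, 102, 97.3 and 116 in MI+TRD replicates 1 to 6. The lowest MI library, at 143.9, stood above the highest MI+TRD library, at 115.9. The means were 176 ± 42.0 and 98.2 ± 16.1 (SD, n = 6 each), a ratio of 0.559. The log2 fold change was −0.82 ± 0.16 (SE; limma unadjusted p = 0.000129, adjusted p = 0.133), and −0.68 relative to the median of all genes. Its unadjusted p was the 5th smallest of the 10655 genes. Of the fits run here, only DESeq2 on the recovered reads placed Myh7b past the threshold, at a log2 fold change of −0.67 and an adjusted p of 0.0167. It was 1 of the 7 genes DESeq2 called lower, 0.101% of the 6906 to which it gave an adjusted p, and 18 genes were called in all. edgeR's quasi-likelihood test gave an adjusted p of 0.305 and called 0 genes, with 743 lower and 852 higher before adjustment (p below 0.05). Over the 29 alternatives run, its fold change lay between −0.93 and −0.54 and its unadjusted p was below 0.05 in all 29.

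Myh6, the gene of the fast alpha heavy chain (chromosome 15, 33605653 to 33629593), measured 13022, 17439, 11501, 19617, 9861 and 15260 in MI replicates 1 to 6. In MI+TRD it measured 19031, 11182, 13056, 19852, 13923 and 7296. The MI+TRD libraries included both the highest and the lowest of the 12 values. The means were 14450 ± 3690 and 14057 ± 4761 (SD, n = 6 each), and the log2 fold change was −0.08 ± 0.30 (SE; limma adjusted p = 0.911). Its sign differed by scaling, at 0.09 with median-ratio scaling and 0.16 with equal totals.

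Myh7, the gene of the slow beta heavy chain (chromosome 15, 33634422 to 33656090), lies beside Myh6. It measured 14718, 5525, 11198, 17404, 12600 and 12257 in MI replicates 1 to 6, and 13143, 7385, 10089, 10276, 22960 and 10666 in MI+TRD replicates 1 to 6. Replicate 2 was the lowest library of each group, and MI+TRD replicate 5 was the highest of all. The means were 12284 ± 3977 and 12420 ± 5479 (SD, n = 6 each), and the log2 fold change was 0.00165 ± 0.33 (SE; limma adjusted p = 0.999). For both genes the standard errors allow differences of either sign. The coding sequences of Myh6 and Myh7 are alike over long stretches, and how reads that match both were counted, or whether strand was used, is not given in the sources used here, so the division of reads between them is uncertain.

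**Figure D1:**
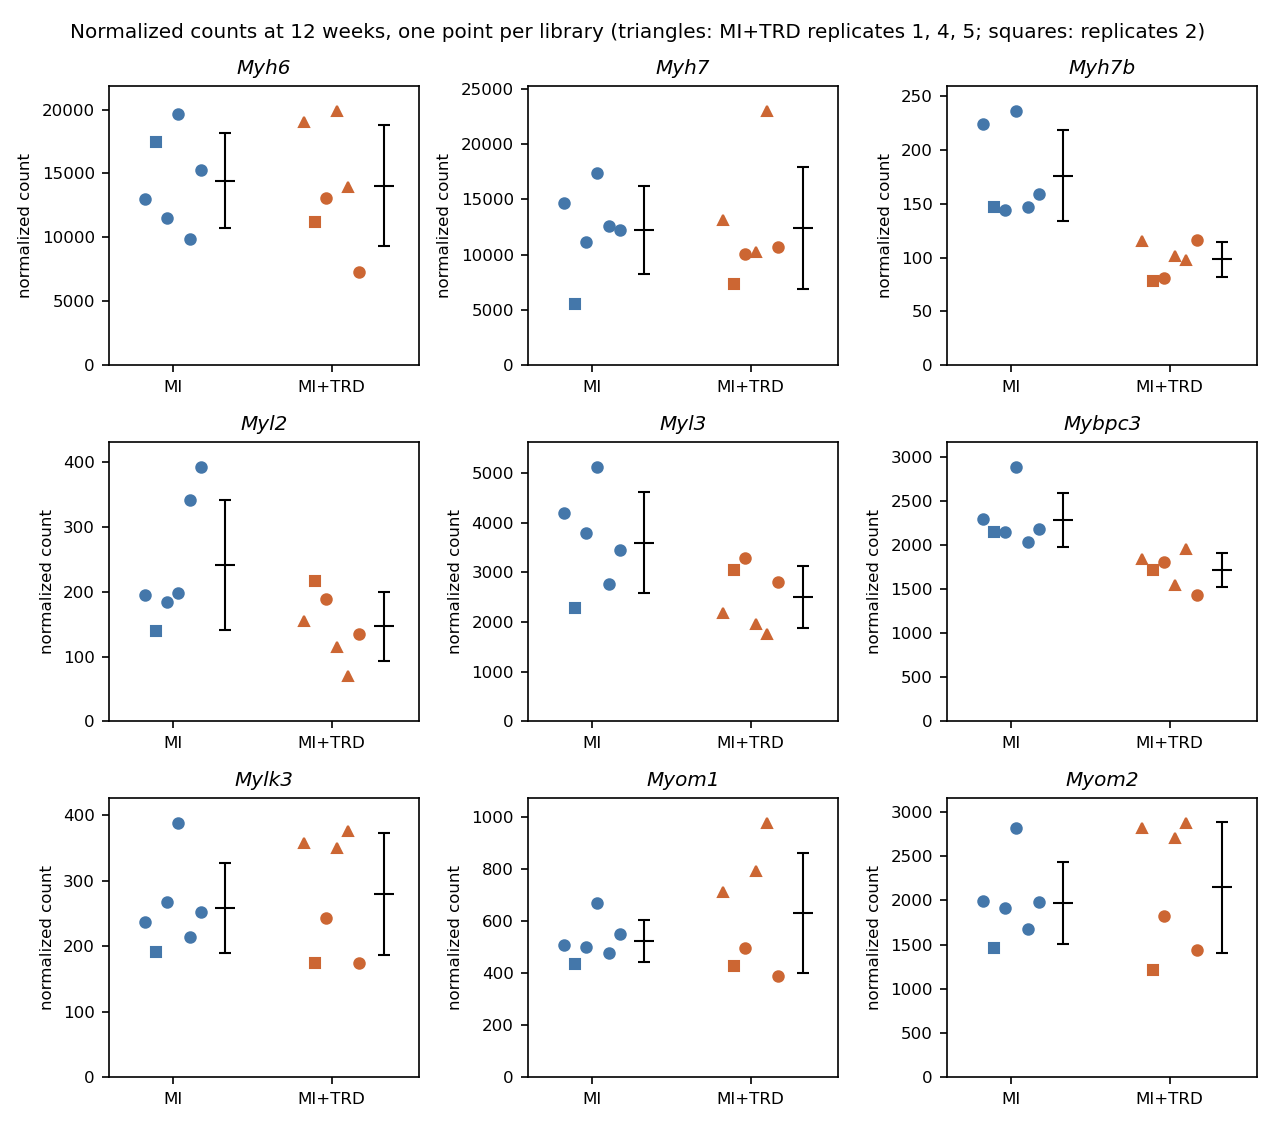
Normalized count of each of the 9 genes in the 12 libraries at 12 weeks, with MI in blue and MI+TRD in orange; black bars show the mean and SD (n = 6 each), triangles MI+TRD replicates 1, 4 and 5, and squares replicate 2 of each group. Myh7b and Mybpc3 are the genes whose groups do not overlap on this scale, and the triangles are the 3 highest MI+TRD points of Mylk3, Myom1 and Myom2 and the 3 lowest of Myl3.

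The ventricular light chain genes were both lower on average in MI+TRD, with overlapping groups. Myl2 encodes the regulatory light chain, the substrate of the kinase below (chromosome 12, 39951863 to 39959066). Its normalized count was 195, 139, 184, 199, 342 and 392 in MI replicates 1 to 6, and 155, 217, 189, 115, 69.4 and 135 in MI+TRD replicates 1 to 6. MI replicates 5 and 6 were the highest and MI+TRD replicate 5 the lowest, and 3 MI+TRD libraries were below all of MI. The means were 242 ± 101 and 147 ± 52.8 (SD, n = 6 each), with a log2 fold change of −0.71 ± 0.29 (SE; limma unadjusted p = 0.0246, adjusted p = 0.169). Myl2 is known as one of the most abundant messages of the ventricle. Its counts, from 69.4 to 392, are low for such a gene, and how much of its transcript the authors' counting covered was not tested.

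Myl3, the gene of the ventricular essential light chain (chromosome 8, 119030875 to 119036997), measured 4200, 2280, 3783, 5109, 2760 and 3443 in MI replicates 1 to 6. In MI+TRD it measured 2182, 3043, 3293, 1954, 1758 and 2794. The 3 MI+TRD libraries below all of MI were replicates 1, 4 and 5. The means were 3596 ± 1014 and 2504 ± 626 (SD, n = 6 each), with a log2 fold change of −0.51 ± 0.23 (SE; limma unadjusted p = 0.0456, adjusted p = 0.220). Without MI+TRD replicates 1, 4 and 5 the log2 fold changes were −0.35 for Myl2 and −0.19 for Myl3 (limma unadjusted p = 0.258 and 0.471), so neither passed the unadjusted threshold without these libraries. Without replicate 2 of both groups they were −0.98 and −0.70 (limma unadjusted p = 0.00344 and 0.0114).

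Mybpc3 encodes cardiac myosin-binding protein C (chromosome 3, 79940561 to 79958731), and like those of Myh7b its groups did not overlap on the deposited scale. It measured 2299, 2153, 2145, 2885, 2036 and 2180 in MI replicates 1 to 6, and 1842, 1718, 1811, 1552, 1955 and 1438 in MI+TRD replicates 1 to 6. The lowest MI library, at 2036, stood close to the highest MI+TRD library, at 1955. The means were 2283 ± 306 and 1719 ± 193 (SD, n = 6 each), a ratio of 0.753, with a log2 fold change of −0.41 ± 0.16 (SE; limma unadjusted p = 0.0200, adjusted p = 0.160). Of all genes tested, 1.59% had every MI+TRD library below every MI library and 0.113% had every one above, and 2 of the 9 genes were of the first kind. After subtracting each library's median the groups of Mybpc3 overlapped, with MI replicate 2 at −0.16 and MI+TRD replicate 5 at −0.08 (log2 from the MI mean), while those of Myh7b did not, at −0.31 for the lowest MI and −0.37 for the highest MI+TRD library. Mybpc3 depended on the scaling: its log2 fold change was −0.25 with median-ratio scaling, −0.17 with equal totals and 0.03 after quantile normalization (limma unadjusted p = 0.114, 0.214 and 0.868). Relative to the median of all genes it was −0.27. Without MI+TRD replicate 6 it was −0.36 (limma unadjusted p = 0.0561).

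Mylk3 encodes the cardiac kinase that phosphorylates the regulatory light chain (chromosome 19, 27404667 to 27441473). It measured 236, 191, 267, 387, 215 and 252 in MI replicates 1 to 6, and 358, 175, 243, 349, 376 and 175 in MI+TRD replicates 1 to 6. Within MI+TRD the libraries fell apart into replicates 1, 4 and 5, with a mean of 361, and replicates 2, 3 and 6, with a mean of 197. The means of the groups were 258 ± 68.7 and 279 ± 93.3 (SD, n = 6 each), and the log2 fold change was 0.08 ± 0.23 (SE; limma adjusted p = 0.880).

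The M-band genes followed the same split. Myom1, the gene of myomesin 1 (chromosome 9, 119353840 to 119469197), measured 510, 437, 501, 670, 477 and 551 in MI replicates 1 to 6, and 710, 427, 496, 791, 975 and 389 in MI+TRD replicates 1 to 6. Myom2, the gene of myomesin 2, also called M-protein (chromosome 16, 79587640 to 79671720), measured 1996, 1456, 1914, 2814, 1675 and 1975, and 2816, 1218, 1821, 2706, 2868 and 1438. In MI+TRD replicates 1, 4 and 5 the means were 825 for Myom1 and 2797 for Myom2, against 437 and 1492 in replicates 2, 3 and 6. Over whole groups, Myom1 had a log2 fold change of 0.20 ± 0.22 and Myom2 of 0.07 ± 0.25 (SE; limma adjusted p = 0.637 and 0.901). Without MI+TRD replicates 1, 4 and 5 the values of Mylk3, Myom1 and Myom2 were all below 0, at −0.37, −0.26 and −0.39 (limma unadjusted p = 0.104, 0.146 and 0.110).

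**Figure D2:**
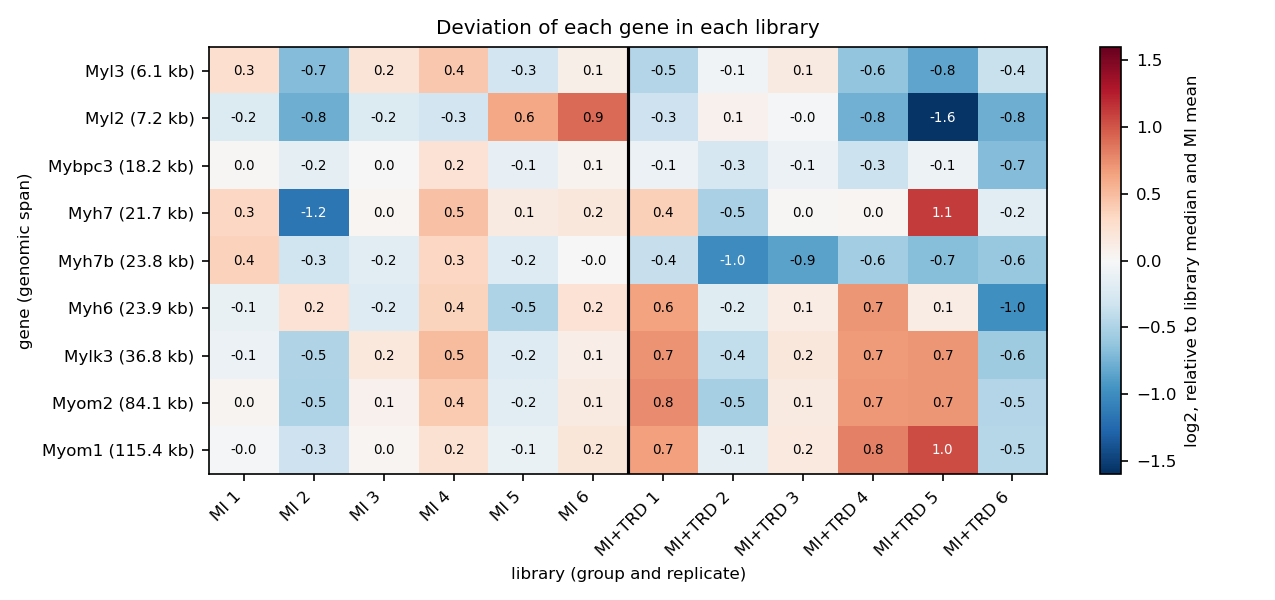
Deviation (log2) of each gene in each library from its MI mean after subtracting the library's median over all genes, with genes ordered by genomic span and libraries by group and replicate; red is high and blue is low. MI+TRD replicates 1, 4 and 5 are red for Mylk3, Myom1 and Myom2 and blue for Myl3 and Myl2, while the row of Myh7b is blue in all 6 MI+TRD libraries.

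Together, 4 of the 9 genes (Myh7b, Mybpc3, Myl2 and Myl3) were lower at an unadjusted p below 0.05 in limma, 0 were higher, and 0 passed after adjustment. The background for the same rule was 19.1% of all genes lower and 2.8% higher. The median log2 fold change of the 9 was −0.08 against −0.14 for all genes, so as a set they did not stand below the rest of the table. With median-ratio scaling, equal totals or edgeR the count was 1, Myh7b alone, where 8.22%, 3.87% and 6.97% of all genes were lower. With same-numbered libraries fitted as blocks it was also 1, Myh7b, where 17.2% of all genes were lower. Scaling each library by the 12 cardiomyocyte markers also left Myh7b, at −0.54 (limma unadjusted p = 0.00562), while Myom1 was higher at 0.48 (limma unadjusted p = 0.0316). That scaling was chosen after seeing the data, and it moves the median of all genes to 0.14. By the same rule 1.95% of all genes were then lower and 12.6% higher.

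The order of the fold changes followed the genomic span of the genes in part. Over all genes, the median log2 fold change relative to the table was −0.19 for 2965 genes spanning up to 10 kb, 0.02 for 1387 genes of 20 to 30 kb and 0.15 for 1410 genes of 50 to 100 kb. Myl3 and Myl2, at 6.12 and 7.20 kb, had −0.37 and −0.57, and Mylk3, Myom2 and Myom1, at 36.8, 84.1 and 115 kb, had 0.22, 0.21 and 0.34. The 3 heavy chain genes span 21.7 to 23.9 kb, and among them Myh7b had −0.68 while Myh7 and Myh6 had 0.14 and 0.07. With the trend over span removed, Myh7b was at −0.68 (limma unadjusted p = 0.000223), and Myl2, Myl3 and Mybpc3 were at −0.43, −0.18 and −0.22 (limma unadjusted p = 0.176, 0.408 and 0.148). The part of span in these values was otherwise not tested.

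**Figure D3:**
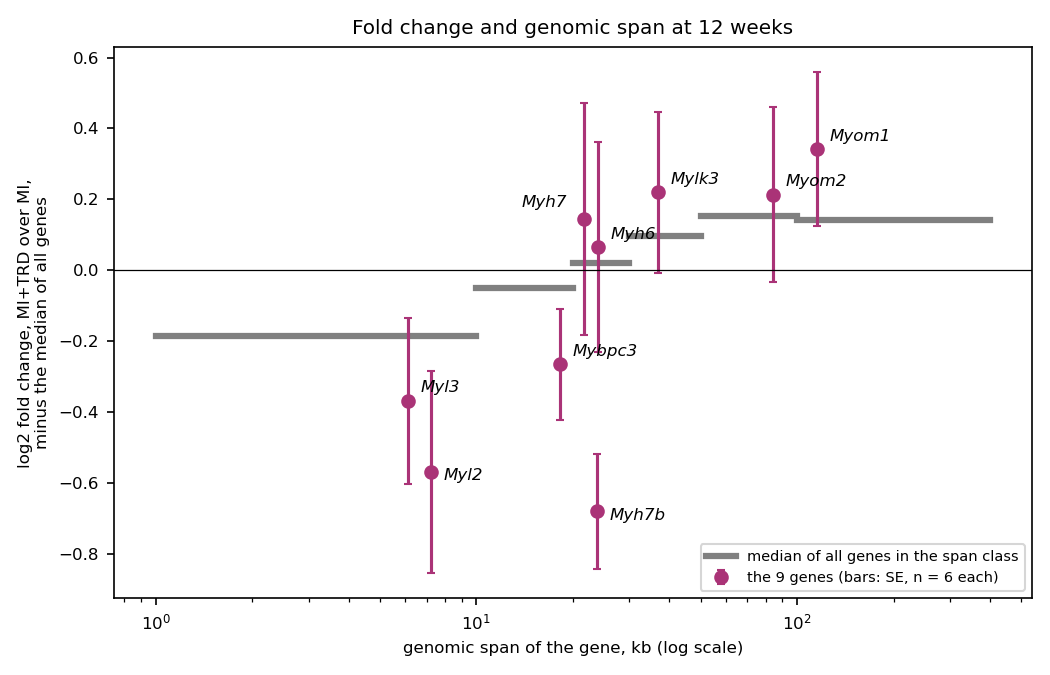
Log2 fold change of MI+TRD over MI minus the median of all genes, against genomic span in kb on a log scale; points are the 9 genes with SE (n = 6 each) and grey lines the medians of all genes in 6 span classes, the outer classes being open-ended. Myh7b, at −0.68, lies far below the line of its class, at 0.02, while Myh6 and Myh7 lie within their SE of it.

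Atrial RNA was highest in replicate 2 of each group, where Myh7 was lowest. MI replicate 2 had the highest levels of the atrial light chain genes, 3170 for Myl7 and 1983 for Myl4, and MI+TRD replicate 2 had 614 and 469. The other libraries had 0.0999 to 321 for Myl7. The second highest Myl7 of each group was in replicate 5, at 321 in MI and 33.9 in MI+TRD, where Myh7 was 12600 and 22960. Without both replicates 2 the log2 fold change was −0.08 for Myh7, 0.04 for Myh6 and −0.81 for Myh7b (limma unadjusted p = 0.788, 0.915 and 0.000421). MI+TRD replicate 6, the library with the lowest Myh6, had the highest fibroblast and macrophage scores of all 12, at 7.13 and 5.62 (mean log2 over the markers), where the others had 5.27 to 6.27 and 1.83 to 3.81. The part of these markers in the results was otherwise not tested.

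Ratios within a library remove the library's scaling, but not the trend over span where the 2 genes differ in span. By exact two-sided permutation of the 12 libraries, 5 ratios were compared, with p-values adjusted over the 5. They are ratios of normalized counts, not corrected for gene length. The ratio of Myh7 to Myh6, the beta to alpha balance, was 1.13, 0.317, 0.974, 0.887, 1.28 and 0.803 in MI replicates 1 to 6. With the device it was 0.691, 0.660, 0.773, 0.518, 1.65 and 1.46. The highest value stood in MI+TRD and the lowest in MI, with medians of 0.929 and 0.730. The mean log2 ratio differed by 0.08 (exact permutation p = 0.864, adjusted p = 0.864), which was within the spread.

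The ratio of Myh7b to Myh7 was 0.0152, 0.0266, 0.0129, 0.0135, 0.0117 and 0.0130 in MI replicates 1 to 6. With the device it was 0.00876, 0.0106, 0.00808, 0.00993, 0.00425 and 0.0109. All 6 MI+TRD libraries were below all 6 MI libraries. The mean log2 ratio differed by −0.83 (exact permutation p = 0.00216, the smallest that 6 against 6 libraries allow, adjusted p = 0.0108). Since Myh7b was known to be low here, this is no independent support. Without MI+TRD replicates 1, 4 and 5 the difference was −0.60 (exact permutation p = 0.0476, adjusted p = 0.238). With 6 against 3 libraries the smallest p is 0.0119, so 1 ratio alone could not pass after adjustment over 5.

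Of the other ratios, Myl2 to Myl3 differed by −0.20, Mylk3 to Myl2, the kinase over its substrate, by 0.79, and Myom2 to Myom1 by −0.13 (log2; exact permutation adjusted p = 0.644, 0.335 and 0.335). Mylk3 to Myl2 was 2.31, 3.03 and 5.40 in MI+TRD replicates 1, 4 and 5, and 0.804, 1.28 and 1.29 in replicates 2, 3 and 6, against 0.627 to 1.94 in MI. Without replicates 1, 4 and 5 its difference was −0.01. Over all 12 libraries with the trend over span removed, the difference of Mylk3 to Myl2 was 0.56 (log2; exact permutation adjusted p = 0.501). Of the 5 ratios, Myom2 to Myom1 varied least, between 2.85 and 4.20 over all 12 libraries.

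**Figure D4:**
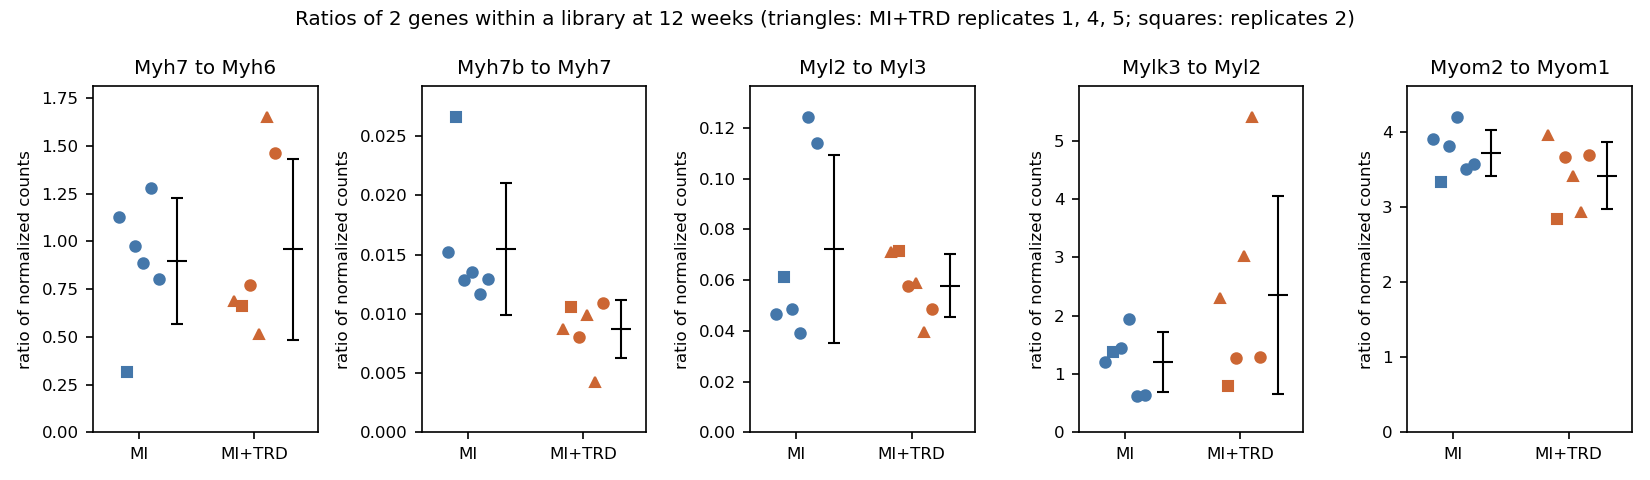
Ratio of normalized counts of 2 genes in each library at 12 weeks, with MI in blue and MI+TRD in orange; black bars show mean and SD (n = 6 each), triangles MI+TRD replicates 1, 4 and 5, and squares replicate 2 of each group. Myh7b to Myh7 is the ratio whose groups do not overlap, and Mylk3 to Myl2 is highest in the 3 triangles.

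The authors' deposited tables give the same comparison at 12 weeks and at 6 weeks, from 2 sets of libraries. In the authors' deposited 12-week table Myh7b had a ratio of MI+TRD to MI of 0.547, a p-value of 0.000310 and a step-up false discovery rate of 0.0434. It was the only one of the 9 genes with a rate below 0.05, against 2.9% of the 11283 genes called lower by that rule. There, 4 of the 9 had a p-value below 0.05 and a ratio below 1, against 22% of all genes, and 0 a ratio above 1, against 2.12%. The ratios there were 0.595 for Myl2, 0.678 for Myl3, 0.739 for Mybpc3, 0.962 for Myh6, 0.994 for Myh7, 1.07 for Mylk3, 1.19 for Myom1 and 1.07 for Myom2, with a median of 0.896 over all genes. The sign for Myh7 differs from that of the values per library, and both lie next to no difference.

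In the authors' deposited 6-week table Myh7b was again lowest of the 9, with a ratio of 0.568, a p-value of 0.00265 and a false discovery rate of 0.348. The authors' group means there were 246 in MI and 140 in MI+TRD. By p-value it ranked 86th of 11283, and 4.09% of genes were lower and 4.42% higher at a p-value below 0.05, with 0 past a false discovery rate of 0.05 (0%). In the authors' deposited table the other 6-week ratios were 0.852 for Myl2, 0.876 for Myl3, 0.893 for Mybpc3, 0.966 for Myh6, 0.905 for Myh7, 1.12 for Mylk3, 0.876 for Myom1 and 0.912 for Myom2, with p-values between 0.473 and 0.947. In all, 8 of the 9 were below 1 at 6 weeks and 6 of 9 at 12 weeks. Most of all genes were below 1 too, with medians over all genes of 0.973 at 6 weeks and 0.896 at 12 weeks. The medians of the 9 were 0.893 and 0.962. The difference between the time points was not tested.

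**Figure D5:**
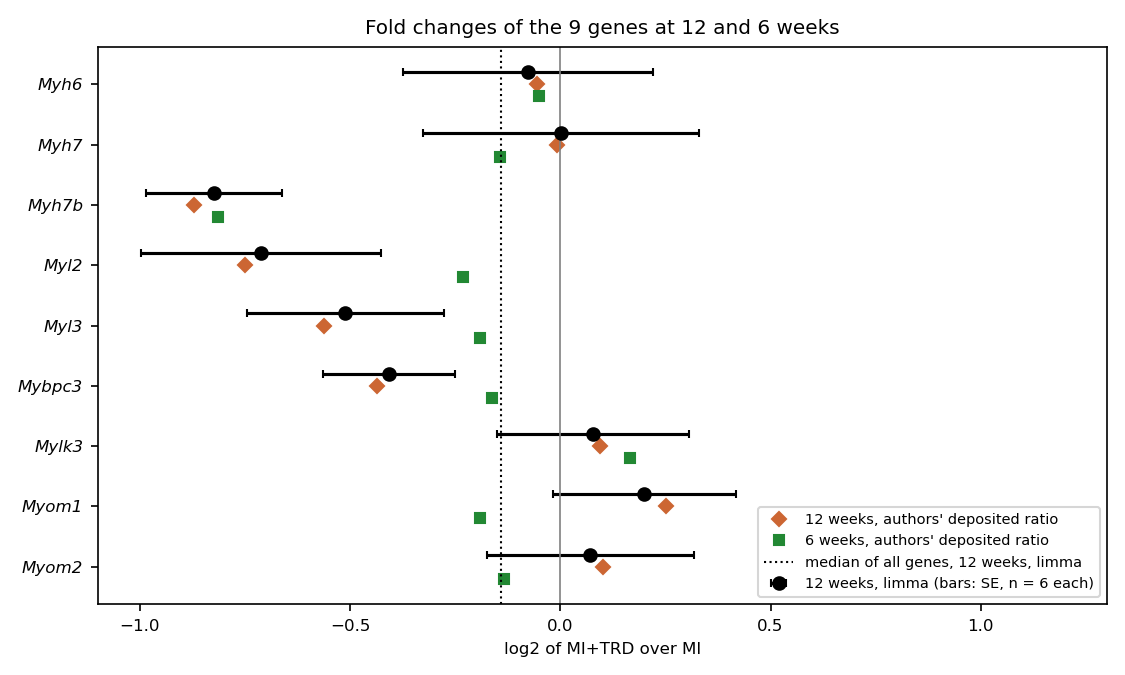
Log2 ratio of MI+TRD to MI for the 9 genes; black points with SE are limma values at 12 weeks (n = 6 each), orange diamonds and green squares the authors' deposited ratios at 12 and 6 weeks, and the dotted line the limma median of all genes, −0.14. Myh7b lies between −0.87 and −0.82 in all 3, while Myl2, Myl3 and Mybpc3 lie nearer to 0 at 6 weeks than at 12 weeks.

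Other genes of the thick filament and its upkeep were taken from a list of 44, of which 32 were in the table. In limma 10 were lower and 1 was higher by unadjusted p (below 0.05), with 0 past adjustment, and their median log2 fold change was −0.22. Over all genes tested the same rule gave 19.1% lower and 2.8% higher, with a median of −0.14. After median-ratio scaling 8.22% of all genes were lower, but the list was not counted on that scale, so this share is no background for the 10. Among the 10, Myl6 and Myl6b share a genomic span, so reads could be divided between them in an unknown way. Those with the lowest test statistics were Trim63, a ubiquitin ligase of the sarcomere, at −0.54, Unc45b, a chaperone of myosin heads, at −0.46, and the non-sarcomeric regulatory light chain genes Myl12a, at −0.55, and Myl9, at −0.78 (limma unadjusted p = 0.000498, 0.00341, 0.00549 and 0.0110). Trim63 had a mean of 69.2 ± 5.94 in the MI libraries and of 47.8 ± 7.21 with the device (SD, n = 6 each). The 4 with the highest statistics were Ppp1cb, the catalytic subunit of myosin phosphatase, at 0.70, the chaperone gene Hsp90aa1 at 0.36, the smooth muscle myosin gene Myh11 at 0.21 and the smooth muscle kinase gene Mylk at 0.10 (limma unadjusted p = 0.0280, 0.0615, 0.648 and 0.670). Ppp1cb had a mean of 171 ± 87.6 in the MI libraries and of 246 ± 28.3 with the device (SD, n = 6 each). Myh11 measured 71.6 ± 14.4 and 121 ± 136, beside a smooth muscle score that was highest in MI+TRD replicate 5.

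Regulators of the myosin genes came from a list of 42, of which 36 were in the table, with a median log2 fold change of 0.06. In limma 4 of the 36 were lower at an unadjusted p below 0.05, a smaller share than the 19.1% of all genes, and are named as a description. They were Rxrb, a retinoid X receptor that pairs with the thyroid hormone receptors, at −0.61, Srf, which binds CArG motifs, at −0.43, Thra, the main thyroid hormone receptor of heart muscle and an activator of Myh6, at −0.40, and the cardiac homeobox gene Nkx2-5 at −0.41 (limma unadjusted p = 0.000899, 0.00604, 0.0186 and 0.0371). Of the 36, 1 was higher, beside 2.8% of all genes by the same rule, and is likewise named as a description. It was Mef2a, at 0.63 (limma unadjusted p = 0.00564), whose mean was 35.1 ± 7.03 in the MI libraries and 55.4 ± 15.7 with the device (SD, n = 6 each). Next came Ppargc1a, a coactivator of energy metabolism genes, at 0.44, the calcineurin target Nfatc3 at 0.29 and the Mediator gene Med13, a known target of miR-208a, at 0.25 (limma unadjusted p = 0.125, 0.155 and 0.228). No regulator passed adjustment in limma (0 of 36).

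Across the 12 libraries, the level of each gene was compared with every other gene after subtracting the library median, as a description, since the 12 points share each library's depth and tissue makeup. Mylk3 and Myom2 had a Pearson's r of 0.986, Mylk3 and Myom1 of 0.941, and Myom1 and Myom2 of 0.935. Myh6 and Myh7, neighbours on chromosome 15, had 0.16. Myh7 and Myl3 had 0.87 over the 6 MI libraries and −0.71 over the 6 MI+TRD libraries. The genes most like each member were Hhatl and Lrrc58 for Myh6 (0.951 and 0.948), Zfp710, RGD1563482 and Lrrc2 for Myh7 (0.923 to 0.892), and Kat2a, Txlna and Ccar2 for Myh7b (0.948 to 0.909). Those for Myl2 were Cox15, Tigar and Prkaca (0.889 to 0.879), for Myl3 Acaa2, Idh3B and Mtfp1 (0.947 to 0.938), and for Mybpc3 Cpt1b, Ensa and Bzw2 (0.917 to 0.911). Those for Mylk3 were Arel1, Adam1a and Prkce (0.990 to 0.983), for Myom1 Lmtk2, Hdlbp and Myocd (0.979 to 0.977), and for Myom2 Yap1, Hsp90ab1 and Tns1 (0.992 to 0.979). The r over all 12 libraries also holds any difference between the groups. Within MI and within MI+TRD, r with Myh7b was 0.854 and 0.928 for Kat2a, 0.977 and 0.467 for Txlna, and 0.882 and 0.624 for Ccar2.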

How the data were processed

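Polyadenylated RNA was read by Illumina sequencing, per the labels' protocols. Partek and rn6 are named in the submitters' processing notes. For the aligner, annotation, scaling and strand, the sources used here give nothing. The deposited signal is the authors' normalized count per gene and library at 12 weeks, per the file headers. Among values of up to 20 steps of the library's smallest value, 97.2% to 98.6% were whole numbers of steps to within 0.1. Whole reads were recovered as the number of steps above the smallest value, which was itself taken to stand for no reads. Whether the authors had added a constant to every value was not tested, and the counts of genes at 0 reads rest on it. The authors' deposited tables for 6 and 12 weeks hold a p-value and step-up false discovery rate, the linear ratio, a signed fold change (a score computed from the ratio) and the mean signal per group, per the file headers.

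Groups came from the labels. limma 3.58.1 (trended prior, R 4.3.3) tested log2(value + 0.208) over 10655 genes with a mean share of at least 0.415 deposited units, two-sided. P-values were adjusted after Benjamini and Hochberg over all genes tested, and the threshold was 0.05. Fold changes on this scale understate those of low genes. edgeR 4.0.16 and DESeq2 1.42.0 were run on recovered reads. Ratios were tested by exact permutation. Scores are mean log2 values over markers. On simulated reads for the 12-week comparison (10655 genes), limma recovered 12%, 70%, 86% and 84% of genes changed 1.5-, 2-, 3- and 4-fold. Those reads were drawn for each gene separately and scaled to equal totals, without shifts shared by the genes of a library. The rates therefore need not hold for the deposited scale. Pairs of libraries within a group all differed beyond counting noise (chi-square over its degrees of freedom at least 15.0), and the 3 ribosomal RNA entries took up to 11.7% of a total. Named were all 9 genes, the 4 lowest and 4 highest limma statistics of each list, and the 3 genes most correlated with each member. 1 gene that this rule names is not reported here. The members, lists and rules were chosen with earlier results of these data known. Coordinates are those of the deposited table, and sequences are RefSeq's (GRCr8). The 6-week values of single libraries were not analysed here.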

Additional observations from a re-analysis of the deposited data

Results flagged for a closer look

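In 28 sets of 6 libraries, covering the 9 genes and the 5 ratios in each group, 3 held a library whose gap to its nearest neighbour was more than 0.625 of the set's range. Chance alone gives such a gap in about 1 set in 20. Myh7 measured 22960 in MI+TRD replicate 5, where the next highest MI+TRD library had 13143. Mybpc3 measured 2885 in MI replicate 4, where the next highest MI library had 2299, and without that library its log2 fold change was −0.34 (limma unadjusted p = 0.0378). The ratio of Myh7b to Myh7 was 0.0266 in MI replicate 2, where the next highest MI library had 0.0152. That library also had the lowest Myh7 of MI, at 5525, and the highest level of the atrial gene Myl7, at 3170.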

How the results depend on the processing

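Myh7b was lower at an unadjusted p below 0.05 under all 29 alternatives, with adjusted p-values from 0.0167 to 0.324. Myl2 and Myl3 were below 0 in all 29 and Mybpc3 in 28, with unadjusted p-values below 0.05 in 16, 11 and 20. The number of members lower, 4 as reported, was 1 with median-ratio scaling, equal totals with or without ribosomal RNA, quantile normalization, edgeR, the span trend removed and cardiomyocyte scaling. It was 2 with DESeq2 and without MI+TRD replicates 1, 4 and 5, and 2 to 4 without single libraries (2 without MI replicate 6 or MI+TRD replicate 5). Leaving out MI replicate 5 or 6 or MI+TRD replicate 5 took the unadjusted p of Myl2 above 0.05, as did MI replicate 1, 3, 4 or 6 or MI+TRD replicate 1, 4 or 5 for Myl3, and MI+TRD replicate 6 for Mybpc3. The number higher was 1 (Myom1) with DESeq2 and with cardiomyocyte scaling, where 8.97% and 12.6% of all genes were higher. With DESeq2 1 member, Myh7b, passed adjustment. The cause of these differences was not tested.

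Same-numbered libraries of the groups had correlations of deviations of −0.25, 0.33, 0.14, 0.19, 0.12 and −0.33. Since 2 of the 6 were below 0, the numbers were not taken to pair libraries, although 4 of 6 MI libraries correlated best with their own number. Whether the numbers mark a shared batch was not tested. With a replicate block 1 member was lower, Myh7b, and the unadjusted limma p of Myl2, Myl3 and Mybpc3 was 0.0520, 0.0781 and 0.0604. The ratio of Myh7b to Myh7 had the same difference, −0.83, with an adjusted exact permutation p of 0.156. Its unadjusted exact permutation p, 0.0313, is the smallest that 6 pairs allow. At that p 1 ratio alone could not pass after adjustment over the 5 ratios, so the adjusted p shows no lost effect.

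Signs changed as follows (log2). Myh6 was at 0.085 with median-ratio scaling, 0.16 with equal totals, 0.11 without ribosomal RNA, 0.37 with quantile normalization, 0.034 with library weights, 0.14 with edgeR, 0.15 with DESeq2, 0.065 with the span trend removed, 0.20 with cardiomyocyte scaling and 0.036 without both replicates 2. Without MI+TRD replicates 1, 4 and 5, Myh7 was at −0.33, Mylk3 at −0.37, Myom1 at −0.26, Myom2 at −0.39 and the ratio of Mylk3 to Myl2 at −0.014. In that setting the ratio of Myh7b to Myh7 kept its sign, at −0.60 (adjusted exact permutation p = 0.238, where 1 ratio alone could not reach 0.05). With the atrial score as a covariate, Myh7 was at −0.22, Mylk3 at −0.12 and Myom2 at −0.13. Myh7 was at −0.14 with library weights and −0.082 without both replicates 2, where the ratio of Myh7 to Myh6 was −0.12. Mybpc3 was at 0.026 with quantile normalization. Leaving out single libraries gave −0.19 to 0.10 for Myh6, −0.21 to 0.13 for Myh7, −0.023 to 0.20 for Mylk3, −0.028 to 0.22 for Myom2 and −0.20 to 0.23 for the ratio of Myh7 to Myh6. The fits with span, cardiomyocyte scaling and both replicates 2 left out were chosen after seeing the data.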
